A study of Aspergillus nidulans with 9 samples.

Results

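The genes described here are 7 genes of *Aspergillus nidulans* that serve growth on acetate and related carbon sources. They were chosen by their identifiers and known roles, by a rule that used no counts: *facA* (AN5626), *acuJ* (AN6279), *acuD* (AN5634), *acuE* (AN6653), *acuF* (AN1918), *acuG* (AN5604) and *facB* (AN0689). The genes were, however, chosen with earlier results of these data known. They are 7 of the 10988 rows of the count table, and each had 1 row. RNA was sequenced from vegetatively grown cells (Vege) of the Δ*veA* mutant, the Δ*laeA* mutant and wild type (WT), with 3 libraries of each strain and 9 in all. *veA* encodes a velvet family regulator and *laeA* a global regulator of secondary metabolism, and the comparisons ask which genes change when either is deleted. In the study's strain list, *argB* takes the place of *veA* in the Δ*veA* strain, and *methG* that of *laeA* in a strain that also carries *methG1* and *veA*. Each genotype is thus 1 strain, and WT carries no marker in that list. All cultures grew for 24 h at 37 °C in the dark, shaken at 220 rpm, in liquid minimal medium with 1% glucose. No move to acetate is described, and the glucose left at harvest is not given for any strain.

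On acetate, a fungal cell has to build sugars from a molecule with a pair of carbon atoms. Acetyl-CoA synthetase (*facA*) turns acetate into acetyl-CoA, and carnitine acetyltransferase (*acuJ*) loads its acetyl group onto carnitine for passage between compartments. Isocitrate lyase (*acuD*) and malate synthase (*acuE*) form the glyoxylate bypass in peroxisomes, which skips the steps of the tricarboxylic acid cycle that release carbon dioxide. Phosphoenolpyruvate carboxykinase (*acuF*) and fructose-1,6-bisphosphatase (*acuG*) carry out the steps of gluconeogenesis that glycolysis cannot run backwards. The zinc cluster protein FacB (*facB*) activates genes of acetate use, and the repressor CreA (*creA*) holds many genes for poorer carbon sources down when glucose is present.

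Reads on genes totalled 13396869 to 35755046 per library, with a median of 20346515, and levels are CPM, counts scaled to the TMM-normalized size of the library. *veA* (AN1052) had 773 to 815 CPM in the Δ*veA*-labelled libraries, against 108 to 116 CPM in WT. Read as levels of an intact gene, these counts go against the label. However, a total per gene gives no position of its reads along *veA*, and reads of both strands may be mixed. Whether the label is right was not tested. The libraries are therefore called Δ*veA*-labelled, and each direction stated for them rests on that label. *laeA* (AN0807) had 4.96 to 6.61 CPM in the Δ*laeA* libraries, against 34.2 to 37.95 CPM in WT. Of the conidiophore genes that vegetative cells should lack, *brlA* (AN0973) had 1.03 to 2.32 CPM in the Δ*veA*-labelled libraries and 0.857 to 1.56 CPM in Δ*laeA*, against 15.6 to 18.5 CPM in WT. *abaA* averaged 1.11, 0.977 and 2.11 CPM, and *wetA* 0.790, 5.32 and 5.81 CPM, in the Δ*veA*-labelled libraries, in Δ*laeA* and in WT. In each mutant 2 of the 3 were lower than in WT by more than 2-fold at an adjusted p under 0.05 (edgeR). Summed over these 3 markers, the level was 2.77 to 4.24 CPM in the Δ*veA*-labelled libraries and 6.01 to 8.80 CPM in Δ*laeA*, against 23.8 to 25.4 CPM in WT. None was at 0, and their part in the changes below was not tested. In such bulk RNA, fewer cells of a kind and less RNA per cell cannot be told apart.

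All 7 genes passed the filter on low counts, with 349 to 49891 counts in a library. The SD over the 3 libraries of a strain was 0.723% to 12.2% of the mean. How much of this spread was counting error was not computed. A differentially expressed gene (DEG) changed by more than 2-fold at an adjusted p under 0.05, the thresholds used in the study. Each adjusted p comes from the quasi-likelihood F test of edgeR, adjusted over the 9481 genes tested by the Benjamini-Hochberg method. Both comparisons with WT use the same 3 WT libraries.

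Against WT, 1 of the 7 genes was a DEG in the Δ*veA*-labelled libraries, namely *facA*, which was lower. Of all genes tested, 33.6% were DEGs in that comparison and 19.9% were DEGs that were lower. In Δ*laeA*, *acuD* and *acuE* were the 2 DEGs of the 7 and both were lower, where 24.4% of all genes tested were DEGs and 14.5% were DEGs that were lower. With the adjusted p alone and no fold minimum, 6 of the 7 genes fell in the Δ*veA*-labelled libraries and 6 fell in Δ*laeA*, and none rose in either. The share of all tested genes that fell by this rule was 40.0% for Δ*veA* and 36.8% for Δ*laeA*. In the same 6 genes of each comparison every mutant library lay below every WT library, which held for 40.2% of all tested genes for Δ*veA* and 37.9% for Δ*laeA*. The median log2 fold change of the 7 genes was -0.55 in the Δ*veA*-labelled libraries and -0.66 in Δ*laeA*, beside 0.0012 and -0.0041 over all genes tested. The lower and upper quartiles of all genes tested were -0.73 and 0.59 for Δ*veA*, and -0.51 and 0.45 for Δ*laeA*. The median of the 7 thus lay between the quartiles for Δ*veA* and below the lower quartile for Δ*laeA*. The gene that did not pass the test was *acuJ* in Δ*veA* and *facB* in Δ*laeA*.

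**Figure D1:**
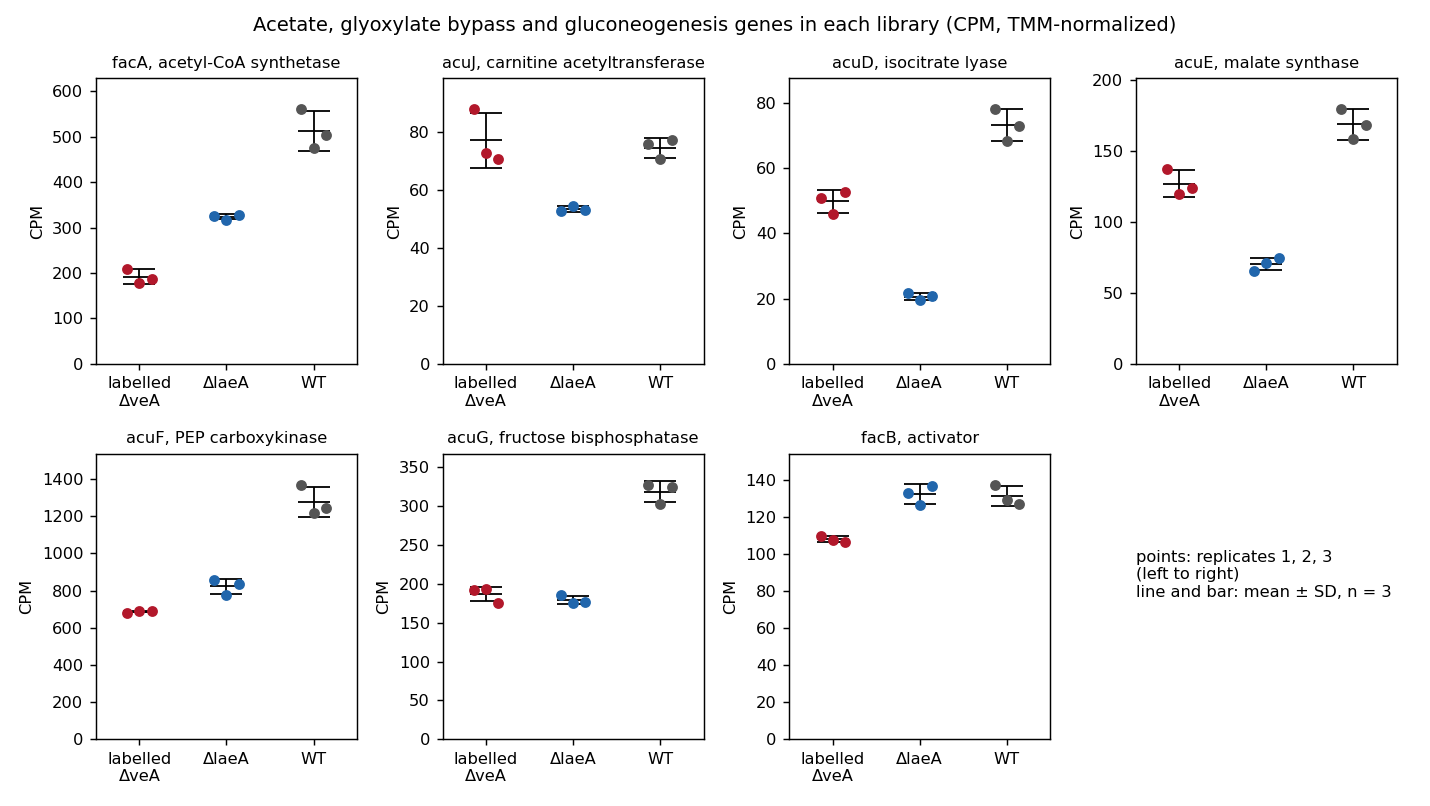
CPM of each of the 7 genes (vertical axes, from 0) in the ΔveA-labelled libraries, in ΔlaeA and in WT, with a point per library, the mean as a line and the SD as bars (n = 3). The WT points of *facA*, *acuD*, *acuE*, *acuF* and *acuG* lie above all points of both mutants, whereas *acuJ* overlaps WT in the ΔveA-labelled libraries and *facB* overlaps WT in ΔlaeA.

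*facA*, which feeds acetate into metabolism as acetyl-CoA, had 210, 178 and 187 CPM in Δ*veA*-labelled libraries 1 to 3, 325, 317 and 328 CPM in Δ*laeA*, and 561, 475 and 503 CPM in WT. The 3 strains did not overlap, with the Δ*veA*-labelled libraries lowest and WT highest. Its log2 fold change was -1.42 in the Δ*veA*-labelled libraries (standard error 0.057, adjusted p = 1.55e-20, edgeR). In Δ*laeA* it was -0.66 (standard error 0.056, adjusted p = 3.82e-12, edgeR), short of 2-fold. In the Δ*veA*-labelled libraries, 14.9% of all genes tested had a lower log2 fold change than *facA*, against 20.9% in Δ*laeA*.

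*acuJ*, the carnitine acetyltransferase gene whose enzyme serves mitochondria and peroxisomes, had 88.1, 72.7 and 70.8 CPM in the Δ*veA*-labelled libraries. It had 52.8, 54.5 and 53.1 CPM in Δ*laeA* and 75.97, 70.7 and 77.4 CPM in WT. The Δ*veA*-labelled libraries overlapped WT, with replicate 1 above the other libraries, and all Δ*laeA* libraries were below both. Its log2 fold change in Δ*laeA* was -0.48 (standard error 0.069, adjusted p = 2.50e-07, edgeR). In the Δ*veA*-labelled libraries it was 0.06 with a 95% interval of -0.08 to 0.19, and not past the test (adjusted p = 0.424, edgeR). Without Δ*veA* replicate 1 this value was -0.07, and with library totals in place of TMM factors it was -0.20 and past the test (adjusted p = 0.00593, edgeR). With library totals the median of all genes tested was itself -0.26, so *acuJ* did not lie below that median.

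*acuD*, the isocitrate lyase gene that opens the glyoxylate bypass, had 50.9, 45.9 and 52.7 CPM in the Δ*veA*-labelled libraries. It had 21.6, 19.4 and 20.7 CPM in Δ*laeA* and 78.1, 68.2 and 73.0 CPM in WT. The 3 strains did not overlap, and here Δ*laeA* was lowest. The log2 fold change was -1.83 in Δ*laeA* (standard error 0.074, adjusted p = 8.11e-21, edgeR), a mean of 20.6 ± 1.11 CPM against 73.1 ± 4.96 CPM in WT (SD, n = 3). In the Δ*veA*-labelled libraries it was -0.55 (standard error 0.067, adjusted p = 6.07e-09, edgeR). In Δ*laeA*, 7.56% of all genes tested had a lower log2 fold change than *acuD*, and in the Δ*veA*-labelled libraries 29.1% had.

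*acuE*, the malate synthase gene of the next step, had 137, 119.8 and 124 CPM in the Δ*veA*-labelled libraries, 65.7, 71.3 and 74.2 CPM in Δ*laeA*, and 179.5, 158 and 168 CPM in WT. The order of the strains was that of *acuD*, again without overlap. The log2 fold change of *acuE* was -1.26 in Δ*laeA* (standard error 0.061, adjusted p = 9.42e-19, edgeR) and -0.40 in the Δ*veA*-labelled libraries (standard error 0.058, adjusted p = 1.58e-07, edgeR).

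The balance of this pair was also read within each library, where the scaling of libraries plays no part. For every 100 counts of *acuE* there were 37.0, 38.3 and 42.5 counts of *acuD* in the Δ*veA*-labelled libraries. There were 32.96, 27.2 and 27.9 in Δ*laeA* and 43.5, 43.1 and 43.4 in WT. Every Δ*laeA* library was below every library of the other strains, and every Δ*veA*-labelled library was below WT. Library 3 of the latter was close to WT, at 42.5 against 43.1, with 1025 counts of *acuD*. The counting error of these ratios was not computed, so this small gap may lie within it. The mean log2 ratio differed from that of WT by -0.14 in the Δ*veA*-labelled libraries and by -0.57 in Δ*laeA*. A two-sided exact permutation test gave p = 0.10 for either mutant, which is the smallest p that 3 libraries against 3 can give.

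**Figure D2:**
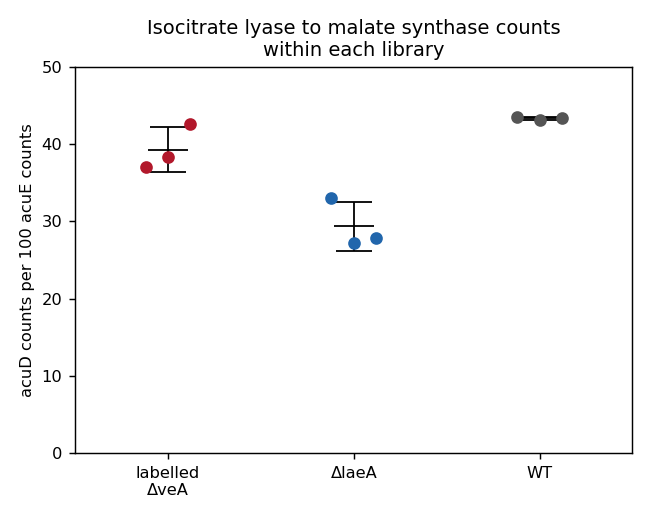
Counts of *acuD* per 100 counts of *acuE* (vertical axis, from 0) within each library, with a point per library and the mean and SD as lines (n = 3). WT libraries lie between 43.1 and 43.5, and all libraries of both mutants lie lower, the closest at 42.5 and those of ΔlaeA lowest.

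*acuF*, the phosphoenolpyruvate carboxykinase gene at the entry to gluconeogenesis, had 682, 690.3 and 690.3 CPM in the Δ*veA*-labelled libraries. It had 855, 778 and 833 CPM in Δ*laeA*, and 1369, 1218 and 1244 CPM in WT. The strains did not overlap, and the Δ*veA*-labelled libraries were lowest, as for *facA*. Its log2 fold change was -0.89 in the Δ*veA*-labelled libraries (standard error 0.047, adjusted p = 6.83e-18, edgeR) and -0.64 in Δ*laeA* (standard error 0.047, adjusted p = 7.97e-14, edgeR). Neither reached 2-fold, and with library totals alone the value for Δ*veA* was -1.15, past 2-fold. The median of all genes tested was itself -0.26 in that fit.

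*acuG*, the fructose-1,6-bisphosphatase gene at the far end of that route, had 191, 193 and 176 CPM in the Δ*veA*-labelled libraries, 185, 175 and 177 CPM in Δ*laeA*, and 327, 302 and 324 CPM in WT. The libraries of both mutants overlapped each other and were all below WT. The log2 fold change was -0.77 in the Δ*veA*-labelled libraries (standard error 0.049, adjusted p = 1.23e-15, edgeR) and -0.83 in Δ*laeA* (standard error 0.050, adjusted p = 3.14e-16, edgeR). With library totals alone both values passed 2-fold, at -1.03 and -1.15, where the medians of all genes tested were themselves -0.26 and -0.33.

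*facB*, the activator gene, stayed well within 2-fold in both mutants. It had 110, 107 and 106 CPM in the Δ*veA*-labelled libraries, 133, 126 and 137 CPM in Δ*laeA*, and 137, 129 and 127 CPM in WT. The Δ*veA*-labelled libraries were below all others, and Δ*laeA* overlapped WT. Its log2 fold change in the Δ*veA*-labelled libraries was -0.28 (standard error 0.051, adjusted p = 1.05e-05, edgeR). In Δ*laeA* it was 0.01 with a 95% interval of -0.09 to 0.12 (adjusted p = 0.841, edgeR). With library totals alone the Δ*laeA* value was -0.31 and past the test (adjusted p = 1.70e-06, edgeR), so that its sign there depended on the scaling. With that scaling the median of all genes tested was itself -0.26 in the Δ*veA*-labelled libraries and -0.33 in Δ*laeA*. Relative to this median *facB* stayed near 0 in Δ*laeA*.

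**Figure D3:**
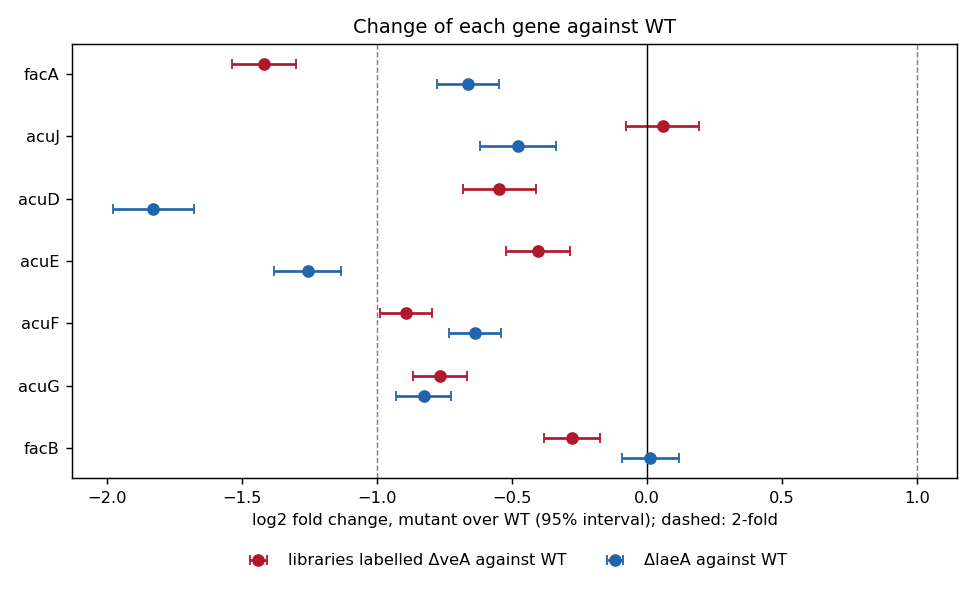
Log2 fold change of each gene against WT (horizontal axis) in the ΔveA-labelled libraries (red) and in ΔlaeA (blue), with 95% intervals; dashed lines mark 2-fold. *facA* passes 2-fold in the ΔveA-labelled libraries at -1.42, and *acuD* and *acuE* pass it in ΔlaeA at -1.83 and -1.26.

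The mutants were then set directly against each other, which tests whether a gene changed unequally in them. By the same thresholds 1 of the 7 genes was a DEG, *acuD*, which was higher in the Δ*veA*-labelled libraries. Of all genes tested, 18.4% were DEGs here and 6.74% were DEGs in that direction. At an adjusted p under 0.05 alone, 6 of the 7 differed, against 70.1% of all genes. Of the 7, 3 were higher and 3 lower in the Δ*veA*-labelled libraries, where 36.5% of all genes were higher and 33.6% lower. The 3 that were higher were *acuD*, *acuE* and *acuJ*, the genes of the glyoxylate bypass and of acetyl transfer to carnitine. *acuD* differed by a log2 value of 1.28 (standard error 0.075, adjusted p = 3.04e-16, edgeR), with a mean of 49.8 CPM in the Δ*veA*-labelled libraries and 20.6 CPM in Δ*laeA*. *acuE* differed by 0.85 (standard error 0.061, adjusted p = 4.51e-14, edgeR) and *acuJ* by 0.54 (standard error 0.069, adjusted p = 3.06e-08, edgeR).

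The 3 that were lower in the Δ*veA*-labelled libraries than in Δ*laeA* were *facA*, *facB* and *acuF*. *facA* differed by a log2 value of -0.75 (standard error 0.057, adjusted p = 4.05e-13, edgeR). *facB* differed by -0.29 (adjusted p = 8.62e-06, edgeR) and *acuF* by -0.26 (adjusted p = 1.33e-05, edgeR). *acuG* had a difference of 0.06 with a 95% interval of -0.04 to 0.16 (adjusted p = 0.276, edgeR). With library totals alone that difference was 0.12 and past the test (adjusted p = 0.0256, edgeR), where the median of all genes tested was 0.089. The libraries of both mutants did not overlap in 6 of the 7 genes, against 71.3% of all genes tested.

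**Figure D4:**
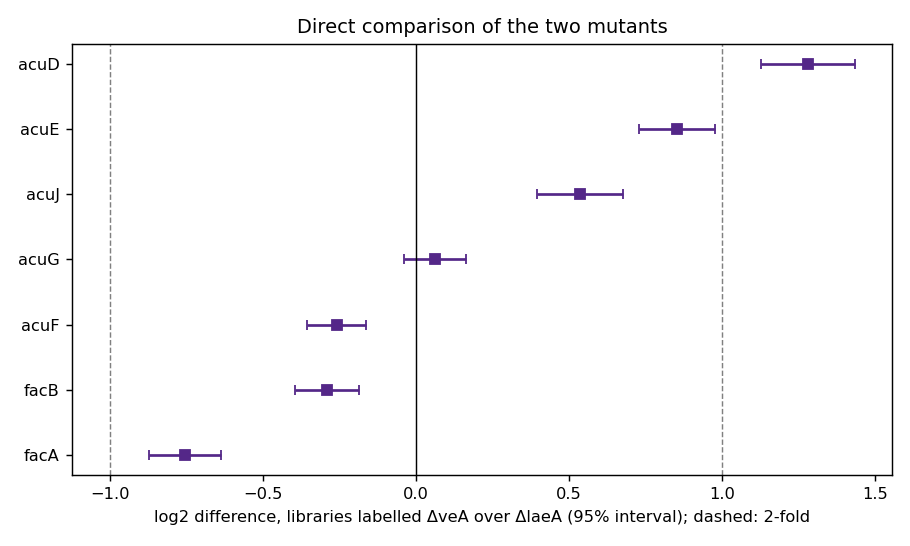
Log2 difference of each gene between the ΔveA-labelled libraries and ΔlaeA (horizontal axis; positive means higher in the ΔveA-labelled libraries), with 95% intervals and dashed lines at 2-fold. *acuD*, *acuE* and *acuJ* lie above 0, *acuF*, *facB* and *facA* below it, and the interval of *acuG* includes 0.

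Other genes of these routes were read through a list of RefSeq symbols, of which few were paired with a row. Of its regulators, *creA*, the glucose repressor gene, had a mean of 127 ± 5.35 CPM in the Δ*veA*-labelled libraries, 190 ± 7.78 CPM in Δ*laeA* and 242 ± 14.8 CPM in WT (SD, n = 3). Its log2 fold change was -0.92 in the Δ*veA*-labelled libraries (adjusted p = 3.85e-17, edgeR) and -0.35 in Δ*laeA* (adjusted p = 3.35e-07, edgeR), so *creA* fell in both without reaching 2-fold. *acuM*, a regulator of gluconeogenic genes, had -0.17 in the Δ*veA*-labelled libraries (adjusted p = 0.00809, edgeR) and -0.03 in Δ*laeA* (adjusted p = 0.685, edgeR). *farA*, the activator of genes for fatty acid use, had -0.49 and -0.27, both past the test. *farB1*, a symbol added to the list after the counts were in hand, was at 5.01, 7.77 and 14.3 CPM in the Δ*veA*-labelled libraries, in Δ*laeA* and in WT. It was a DEG that was lower in the first, at -1.50. *acpA* (AN5704) had 1.09 in the Δ*veA*-labelled libraries, a DEG that was higher, and 0.64 in Δ*laeA*. It was counted in this list by its symbol, which may denote a gene other than the acetate permease the list meant, so its role here is uncertain. Of the 5 genes found, *acpA* included, 1 was a DEG that was higher and 1 a DEG that was lower in the Δ*veA*-labelled libraries, where 13.6% of all genes tested were DEGs that were higher and 19.9% DEGs that were lower. In Δ*laeA* 0 of the 5 were DEGs, where 9.90% of all genes tested were DEGs that were higher and 14.5% DEGs that were lower. At an adjusted p under 0.05 alone (edgeR), 1 of the 5 was higher and 4 were lower in the Δ*veA*-labelled libraries, against 40.1% and 40.0% of all genes. In Δ*laeA* 1 was higher and 3 were lower by that rule, against 36.6% and 36.8% of all genes.

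Among genes of the tricarboxylic acid cycle and its side routes, *mcsA*, the methylcitrate synthase gene of propionate breakdown, was lower than in WT in both mutants and lowest in Δ*laeA*. It had 15.4, 11.9 and 12.02 CPM in the Δ*veA*-labelled libraries, 8.43, 9.76 and 8.02 CPM in Δ*laeA*, and 46.0, 36.5 and 38.6 CPM in WT. All mutant libraries were below WT, and the log2 fold changes of *mcsA* were -1.59 (adjusted p = 1.25e-15, edgeR) and -2.19 (adjusted p = 3.86e-18, edgeR). In the RefSeq gene order *mcsA* and *acuE* are separated by 2 genes. *acoA*, the aconitase gene upstream of the bypass, had 0.22 in the Δ*veA*-labelled libraries and -0.23 in Δ*laeA*, both past the test and small. *cit1* and *aclA*, a citrate synthase gene and a gene of ATP citrate lyase that were added later, had 1.27 and 0.47 in the Δ*veA*-labelled libraries, and 0.94 and 0.70 in Δ*laeA*. Of these 4 genes, 1 was a DEG that was higher and 1 a DEG that was lower in the Δ*veA*-labelled libraries, and 1 was a DEG that was lower in Δ*laeA*. The shares of all genes tested were 13.6% and 19.9% for Δ*veA*, and 14.5% for Δ*laeA*.

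Of the 10 glycolysis symbols of the list 2 were found, and both genes were higher than in WT in both mutants. *gpdA*, which encodes glyceraldehyde-3-phosphate dehydrogenase, had a mean of 7956 ± 378 CPM in the Δ*veA*-labelled libraries, 9585 ± 373 CPM in Δ*laeA* and 3247 ± 77.2 CPM in WT (SD, n = 3). *pgkA*, the phosphoglycerate kinase gene, had 3923 ± 49.4, 5494 ± 24.6 and 2547 ± 56.0 CPM in that order. Their log2 fold changes were 1.29 and 0.62 in the Δ*veA*-labelled libraries, and 1.56 and 1.11 in Δ*laeA*. Of these 2 genes, 1 was a DEG that was higher in the Δ*veA*-labelled libraries, and 2 were in Δ*laeA*, where 13.6% and 9.90% of all genes tested were DEGs that were higher in these comparisons. Both enzymes also run in gluconeogenesis, since their steps are reversible.

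The genes whose levels followed each of the 7 most closely over the 9 libraries were found by Pearson's r of log2 CPM. This r mostly reflects the 3 strain means, and it is given as a description. AN10407 (r = 0.999) and AN7619 (0.998) were closest to *facA*, and AN8660 (0.997) and AN7594 (0.995) to *acuD*. AN0566 (0.997) and AN10452 (0.995) were closest to *acuE*, AN3935 (0.996) and AN4411 (0.995) to *acuF*, and AN6499 (0.996) and AN10090 (0.994) to *acuG*. For *acuJ* they were AN10235 (0.980) and AN1436 (0.976), and for *facB* AN2532 (0.984) and *csmB* (AN6317, 0.983). Among the 7 genes themselves, *acuD* and *acuE* had r = 0.990, and *facA* and *acuF* had 0.953. *facB* had 0.851 with *facA* and -0.23 with *acuD*.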

How the data were processed

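RNA-seq libraries of 3 strains with 3 replicates each were analysed. The authors mapped clean reads with HISAT2 2.1 and counted reads per gene with featureCounts 1.5.0, and the deposited values are counts without normalization. The libraries came from a stranded kit, and the methods state default settings unless noted. The default of featureCounts ignores strand, so reads of a gene and of an antisense partner may not be separated. The 9 single-library files equal the columns of the whole table. Whether replicates came from separate cultures is not stated, so p-values measure the spread between these libraries, which may be technical. Replicate pairs all differed beyond sampling noise (chi-square per degree of freedom 2.89 to 13.7).

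Counts of all 9 libraries were fitted in 1 model with edgeR 4.0.16 in R 4.3.3 (TMM factors of 0.913 to 1.15, filterByExpr, robust quasi-likelihood test), which left 9481 genes and put aside 1507 rows. Standard errors came from the F statistic. The method was tested on simulated data. Alternatives were RLE factors, library totals alone, DESeq2 1.42.0, a replicate block, a fit of the compared groups alone, no filter on low counts or a minimum of 10 counts in each library, no fold-change minimum and each library left out in turn. Exact permutation tests and figures used Python 3.11.15, scipy 1.17.1 and matplotlib 3.10.9.

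The rule for the 7 genes used no counts, but the genes and lists were chosen with earlier results of these data known. Named are the 7 genes, *veA*, *laeA*, the conidiophore markers, list genes found by RefSeq symbol (assembly ASM1142v1, used for names and gene order) that passed the thresholds, changed most or were compared with the 7, and for each of the 7 genes the 2 with the highest r. The regulation, tricarboxylic acid cycle, glycolysis and peroxisome lists had 12, 13, 10 and 29 symbols, of which 5, 4, 2 and 12 were found. Of those found, 1, 2, 0 and 12 were symbols added after the counts were in hand. Levels of different genes were not compared, since no gene length of the counting annotation was used here.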

Additional observations from a re-analysis of the deposited data

How the results depend on the processing

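Of 21 log2 fold changes (7 genes, 3 comparisons), 16 kept their direction and their call, DEG or not, under all 16 alternatives tried for them. The adjusted p alone was not part of this count. That of *acuG* in the direct comparison was 0.276 with TMM factors and 0.0256 with library totals (edgeR). Scaled by library totals, 3 of the 7 genes were DEGs in the Δ*veA*-labelled libraries in place of 1, through *acuF* (-1.15) and *acuG* (-1.03), and *acuG* (-1.15) was a further DEG in Δ*laeA*. Over all genes, 3166 were DEGs in the Δ*veA*-labelled libraries with that scaling, 824 of them higher, beside 3181 and 1293 with TMM factors. In Δ*laeA* they were 2516, 575 of them higher, beside 2312 and 939. The median of all genes was then -0.26 in the Δ*veA*-labelled libraries and -0.33 in Δ*laeA*. The sign of *acuJ* in the Δ*veA*-labelled libraries turned with library totals (-0.20) and without Δ*veA* replicate 1, at -0.071, within -0.071 to 0.12 over the libraries left out. That of *facB* in Δ*laeA* turned with library totals (-0.31), with at least 10 counts in every library (-0.015), with only the groups compared (-0.0017) and with 1 library left out (-0.013 to 0.046). Except for those with library totals, these values of *acuJ* and *facB* were not past the test. Without a fold-change minimum the DEGs among the 7 numbered 6 in each comparison, and over all genes 7601, 6960 and 6645 (Δ*veA*, Δ*laeA* and the direct comparison). The block of replicate numbers changed no call of the 7 genes: 1, 2 and 1 were DEGs, and 3171, 2306 and 1726 over all genes. The deviations of same-numbered libraries from their strain means had r of -0.047 to 0.24 between strains, above 0.1 in 2 of 9 pairs. Between the Δ*veA*-labelled libraries and WT this r was 0.242, 0.115 and 0.042 for replicates 1 to 3. For unlike numbers it was -0.208 to 0.106. Same-numbered libraries were not taken as pairs. The difference in log2 *acuD* to *acuE* ratio was -0.20 to -0.10 in the Δ*veA*-labelled libraries and -0.65 to -0.52 in Δ*laeA* with 1 library left out. Ratios of *acuF* and *acuG* to *pkiA* and *pfkA* were not run, since neither symbol was paired with a row. The fewest counts of the 7 genes were those of *acuD* in Δ*laeA* (349, 408 and 384), where counting error may make up much of the spread between libraries.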

Other observations

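Peroxisomes house the glyoxylate bypass, and 12 genes with RefSeq symbols of peroxins, proteins that build this organelle, were read beside it. Their symbols were added after the counts were in hand. None was a DEG in either mutant, where 33.6% of all genes tested were DEGs in the Δ*veA*-labelled libraries and 24.4% in Δ*laeA*. At an adjusted p under 0.05 alone (edgeR), 6 were higher and 3 lower in the Δ*veA*-labelled libraries, and in Δ*laeA* 6 were higher and 3 lower. By this rule 40.1% of all genes tested were higher and 40.0% lower in the Δ*veA*-labelled libraries, and 36.6% were higher and 36.8% lower in Δ*laeA*. Their median log2 fold change was 0.21 in the Δ*veA*-labelled libraries and 0.11 in Δ*laeA*. In Δ*laeA*, *pex14* was highest (0.60) and *pex7*, which carries a class of proteins into peroxisomes, was lowest (-0.50).

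The counts of *acuD* and *facA* moved apart within libraries, a ratio chosen after their values were seen and given with no test. For every 100 counts of *facA* there were 24.3, 25.7 and 28.2 counts of *acuD* in the Δ*veA*-labelled libraries, 6.67, 6.12 and 6.29 in Δ*laeA*, and 13.9, 14.4 and 14.5 in WT. Relative to WT, the ratio was thus higher in every Δ*veA*-labelled library and lower in every Δ*laeA* library.

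In the RefSeq order *acuD*, *facA* and *acuG* lie on chromosome V, with 7 genes between *acuD* and *facA* and 26 between *facA* and *acuG*. Of the 14 nearest neighbours of the 7 genes, 12 were tested. In the Δ*veA*-labelled libraries 3 of them were DEGs that were lower, and 3 in Δ*laeA*, against 19.9% and 14.5% of all genes tested. AN5633, next to *acuD*, was the neighbour with the same call as its gene, lower in Δ*laeA* at -1.19 on the log2 scale. AN5603, next to *acuG*, had -3.02 in the Δ*veA*-labelled libraries and -1.36 in Δ*laeA*, and AN1919, next to *acuF*, had -2.05 and -1.45. AN1917, on the other side of *acuF*, had -2.03 in the Δ*veA*-labelled libraries, and -0.32 in Δ*laeA*, where it was not a DEG.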
